A study of Mus musculus with 6 samples.

Results

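The genes described are 10 of the 48897 in the deposited table, all found by name: Dmbt1, Cd163, Cd5l, Marco, Msr1, Clec4f, Vsig4, Timd4, Csf1r and Cd68. They were chosen by name as Kupffer cell and scavenger receptor genes, with the measured PHx against Sham differences in view: Dmbt1 was selected on its lower counts after liver resection. The question was whether Dmbt1 followed the Kupffer cell genes. All 10 passed the filter on low counts that left 19033 tested genes. Total RNA was taken from endothelial cells of the liver sinusoids, purified with magnetic beads against CD146, the product of Mcam, from mice of the strain C57BL/6 aged 7 to 8 weeks. The PHx group had undergone partial hepatectomy, the surgical removal of part of the liver, and the Sham group a sham operation, and both were sampled 14 days later. Each group held 3 libraries, numbered 1, 3 and 4. Nothing in the labels says that the libraries came from separate animals, so p-values reflect no more than the scatter of these libraries, and that scatter may be technical.

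Kupffer cells are the resident macrophages of the liver. They sit in the sinusoids next to the endothelial cells, and both cell types clear particles and modified proteins from portal blood through scavenger receptors. A family of these receptors shares the scavenger receptor cysteine-rich (SRCR) domain, which occurs in membrane receptors of macrophages such as Cd163 and Marco, in the secreted protein Cd5l, and in many copies in Dmbt1, a secreted protein best known from epithelia and mucus. Kupffer cells depend on signalling through Csf1r, whose ligands are Csf1 and Il34.

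Summed counts ranged from 38765116 to 51888481 per library. Endothelial transcripts were abundant: the 20 listed genes of sinusoidal endothelial identity summed to between 47378 and 49593 CPM (counts scaled to the library total with TMM factors) in Sham and between 26654 and 41043 CPM in PHx, and none was at 0. Mcam stood between 280.5 and 374 CPM in Sham and between 334 and 408 CPM in PHx. Per gene length, in the deposited RPKM (reads scaled to gene length and library total), the endothelial scavenger receptor Stab1 averaged 821 ± 66.0 in Sham (SD, n = 3) and Clec4f 26.5 ± 17.1. PHx 4 held the most neutrophil transcripts, with 14 of 14 neutrophil markers detected and a summed level of 5371 CPM, against 929 CPM in PHx 1, 42.2 CPM in PHx 3 and between 55.9 and 519.7 CPM in Sham. In a bulk sample of this kind, fewer cells of a type and less RNA per cell cannot be told apart.

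Dmbt1 (chromosome 7, 131032060 to 131121628, mm10, plus strand) stood at 16.1, 34.5 and 17.1 CPM in Sham 1, 3 and 4. In PHx 1, 3 and 4 it stood at 1.25, 1.70 and 2.25 CPM, from 65, 83 and 108 counts. Every PHx library lay below every Sham library, where 20.5% of all tested genes had no overlap between the groups in either direction and 9.97% in this direction. The Sham libraries differed among themselves by 2.14-fold and the PHx libraries by 1.79-fold. The group means of 22.6 ± 10.3 and 1.73 ± 0.50 CPM (SD, n = 3) correspond to a log2 fold change of -3.70 ± 0.39 (SE) and a ratio of Sham to PHx means of 13. This contrast is the one that placed Dmbt1 in the group, so the values are a description; edgeR's quasi-likelihood adjusted p in it was 0.0135. Of the 10 genes 1 was called lower and none higher, where 0.0158% of all tested genes were called lower and 0.846% higher. Dmbt1 was not called without Sham 4 (adjusted p = 0.0685) or without PHx 3 (adjusted p = 0.0510), with limma-voom (adjusted p = 0.0520) or with the replicate number as a block (adjusted p = 0.0709), while its log2 fold change stayed between -4.12 and -3.29 over all alternatives run. The lower end came from a fit with the mean of 6 Kupffer cell genes as a covariate, added after the data were seen; that covariate comes from the same libraries, and the value supports nothing about Dmbt1. Their adjusted p ranged from 1.98e-20, with DESeq2, to 0.0709.

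The genes known from Kupffer cells showed another arrangement of libraries. Clec4f, a C-type lectin of mouse Kupffer cells (chromosome 6, 83644542 to 83656116, minus strand), stood at 109.8, 25.4 and 59.2 CPM in Sham 1, 3 and 4. In PHx 1, 3 and 4 it stood at 28.9, 25.2 and 3.52 CPM. Sham 1 was the highest library and PHx 4 the lowest, and the groups overlapped, since Sham 3 lay below PHx 1. The log2 fold change was -1.75 ± 0.91 (SE), -1.16 without Sham 1 and -1.26 without PHx 4.

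Vsig4, the receptor for complement C3 fragments on tissue macrophages, repeated this pattern, with 27.7, 6.44 and 12.6 CPM in Sham 1, 3 and 4. Its PHx values were 9.44, 7.63 and 2.31 CPM in the same order of numbers. Timd4, which binds phosphatidylserine on dying cells and marks long-lived resident macrophages, stood at 9.67, 1.41 and 4.12 CPM in Sham and at 3.18, 2.15 and 0.104 CPM in PHx. The lowest Timd4 value, in PHx 4, rests on 5 counts. In both genes Sham 1 was again highest, Sham 3 lowest within Sham, and PHx 4 lowest within PHx, with overlap between the groups.

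Among the SRCR genes of macrophages, Cd5l, which encodes a secreted apoptosis inhibitor of macrophages, stood at 132, 18.9 and 45.3 CPM in Sham 1, 3 and 4. In PHx 1, 3 and 4 it stood at 24.8, 21.9 and 10.4 CPM. Cd163, the receptor for haemoglobin bound to haptoglobin, stood at 30.9, 4.99 and 11.5 CPM in Sham and at 6.35, 6.38 and 1.94 CPM in PHx. Both genes had the order of Clec4f within Sham and their lowest value in PHx 4, and for Cd163 the values of PHx 1 and PHx 3, which change places in the deposited RPKM, had overlapping counting intervals (5.68 to 7.08 and 5.70 to 7.13 CPM, exact 95% Poisson limits, which cover counting error only). Marco, a scavenger receptor with a collagen-like stalk (chromosome 1, 120474538 to 120505084, minus strand), stood at 10.9, 1.74 and 3.07 CPM in Sham and at 8.20, 7.45 and 3.16 CPM in PHx. Marco kept the same order within each group, but its PHx libraries were not low: its mean was 5.25 ± 4.97 CPM in Sham against 6.27 ± 2.72 CPM in PHx (SD, n = 3).

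Sham 1 and PHx 4 both weighed on the size of these differences. The log2 fold changes of Vsig4, Timd4, Cd5l and Cd163 were -1.27, -1.48, -1.78 and -1.69 over all libraries, and -0.58, -0.63, -0.77 and -0.77 without Sham 1. Without PHx 4, Vsig4, Timd4, Cd5l and Cd163 were at -0.86, -0.92, -1.49 and -1.31. None of these genes was called in any of these fits.

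**Figure D1:**
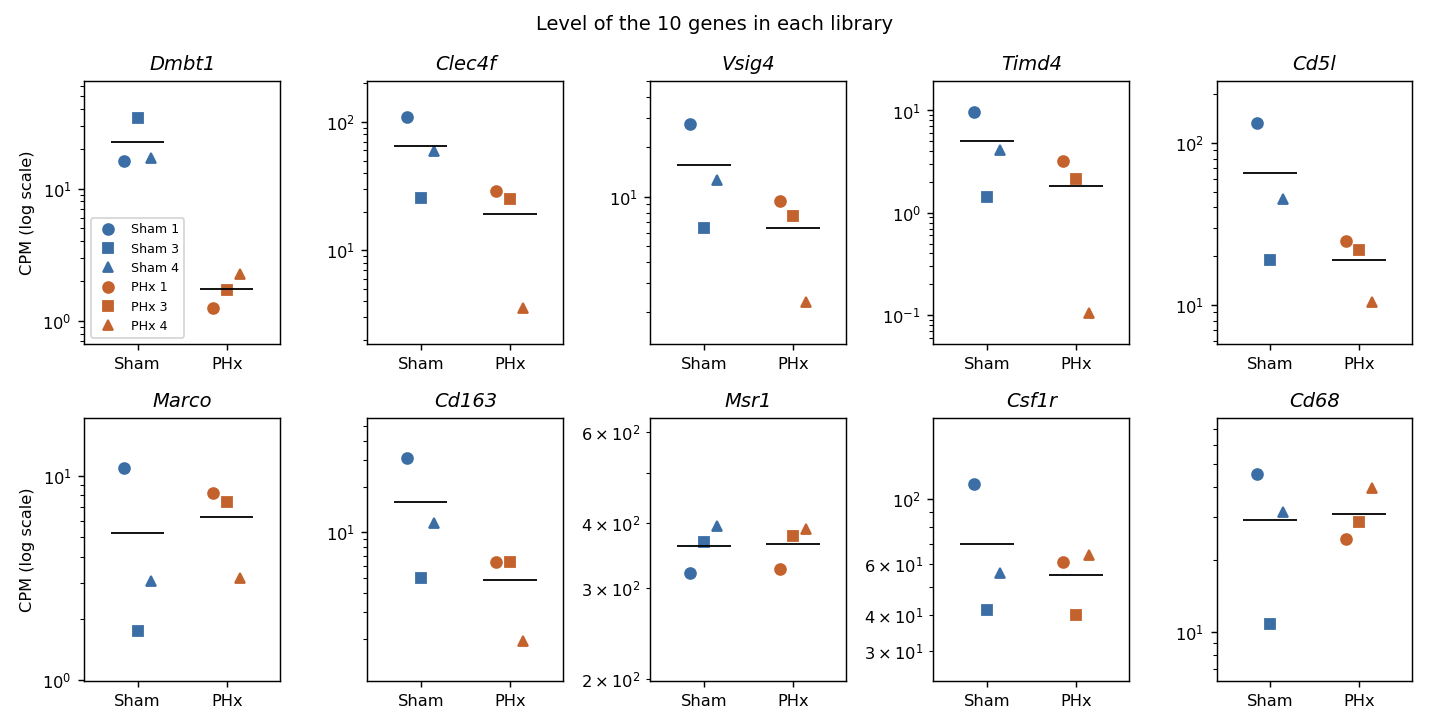
Each panel shows a gene with its own logarithmic axis of TMM-scaled CPM, the 3 Sham libraries on the left, the 3 PHx libraries on the right and a line at the group mean. Dmbt1 shows no overlap between the groups and its highest value in Sham 3, while Clec4f, Vsig4, Timd4, Cd5l, Marco and Cd163 have their highest value in Sham 1 and, Marco apart, their lowest in PHx 4.

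Clec4f, Vsig4, Timd4, Cd5l and Marco shared one order of libraries in both groups, Sham 1 above Sham 4 above Sham 3, and PHx 1 above PHx 3 above PHx 4. That order was found in 399 of 19033 tested genes (2.10%). Within Sham, Cd163, Csf1r and Cd68 had it too, as did 14.1% of all tested genes. Over deviations from the group means, which remove the difference between Sham and PHx, Pearson's r with the mean of 6 genes (Clec4f, Vsig4, Timd4, Cd5l, Marco and Cd163, each itself part of the mean) was between 0.94 for Cd5l and 0.999 for Vsig4. These 6 values come from the same libraries and only describe how tightly the genes moved together.

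The order of Dmbt1 was the reverse in both groups: Sham 3 above Sham 4 above Sham 1, and PHx 4 above PHx 3 above PHx 1. This order was found in 319 of the tested genes (1.68%), and no other gene of the 10 had it. The steps within it were partly small, because the counting intervals of Sham 1 (14.8 to 17.4 CPM) and Sham 4 (16.0 to 18.3 CPM) overlapped, as did those of neighbouring PHx libraries. The step from Sham 4 to Sham 3, at 32.9 to 36.1 CPM, exceeded counting error. Sham 3, the library with the most Dmbt1, was the Sham library with the least Clec4f, Vsig4, Timd4, Cd5l, Marco and Cd163.

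On the log2 CPM scale the 6 Kupffer cell genes averaged 5.05, 2.55 and 3.71 in Sham 1, 3 and 4, against 3.36, 3.13 and 1.06 in PHx 1, 3 and 4. Dmbt1 stood at 4.01, 5.11 and 4.10 in Sham and at 0.37, 0.80 and 1.19 in PHx. Dmbt1 minus the Kupffer mean was -1.04, 2.56 and 0.39 in Sham 1, 3 and 4, against -2.98, -2.33 and 0.14 in PHx, so this difference overlapped between the groups, with means of 0.64 ± 1.81 and -1.72 ± 1.65 (SD, n = 3).

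**Figure D2:**
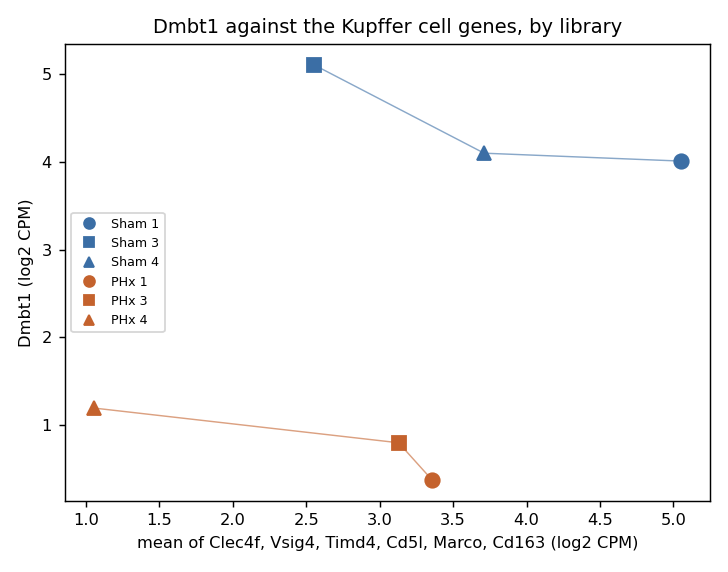
Each point is a library, with the mean log2 CPM of the 6 Kupffer cell genes on the horizontal axis and the log2 CPM of Dmbt1 on the vertical axis; lines join the libraries of a group. The Kupffer means of the groups overlap and the Dmbt1 levels do not, and within each group Dmbt1 was lower where the Kupffer mean was higher.

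Msr1, the class A scavenger receptor, had the full library order of neither. It stood at 321, 368 and 395 CPM in Sham 1, 3 and 4 and at 326, 379 and 389 CPM in PHx 1, 3 and 4. The libraries of both groups lay in the same narrow range, with 1.23-fold between the highest and the lowest of all 6, and the log2 fold change was 0.01 ± 0.13 (SE). In contrast to the Kupffer cell genes, Msr1 was lowest in Sham 1, which within Sham was also the lowest library for Dmbt1. Within PHx, Msr1 and Cd68 had the order of Dmbt1, as did 18.4% of tested genes. An antisense non-coding gene, Gm36741, overlaps the 5′ end of Msr1 and had between 537 and 1573 counts, and the use of strand in counting was not given in the sources used here.

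Csf1r, the receptor that keeps macrophages alive, stood at 113, 41.6 and 55.8 CPM in Sham 1, 3 and 4 and at 60.6, 40.0 and 64.4 CPM in PHx. Cd68, a lysosomal glycoprotein of macrophages and other phagocytes, stood at 45.2, 10.8 and 31.7 CPM in Sham and at 24.5, 28.6 and 39.6 CPM in PHx. Within Sham both followed Clec4f, but within PHx both were highest in PHx 4, the library in which Clec4f was lowest. PHx 4 also held the most neutrophil transcripts and the most transcripts of monocyte-derived cells, of which 16 of 16 listed markers were detected, with a summed level of 805 CPM, against 392 CPM in PHx 1, 225 CPM in PHx 3 and between 186 and 261 CPM in Sham. The part of these cells in the Csf1r and Cd68 values was not tested. Of the windows of 150 bases in the longest Csf1r transcript, 15.9% also occur in transcripts of Hmgxb3, so some Csf1r counts may be shared with that gene.

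Compared per gene length, Msr1 had the highest mean of the 10 in Sham, at 47.5 ± 5.40 RPKM (SD, n = 3). Cd5l (31.5 ± 28.3), Clec4f (26.5 ± 17.1), Cd68 (23.0 ± 13.5) and Csf1r (15.7 ± 8.20) followed, and each of these neighbours lay within the other's spread. Vsig4 stood at 10.7 ± 7.38 RPKM. The lowest 4 means in Sham were those of Cd163 (3.43 ± 2.89), Dmbt1 (3.28 ± 1.54), Marco (2.59 ± 2.43) and Timd4 (2.15 ± 1.77), each within the others' spread. That spread is between libraries that all the genes share, and these means do not compare the genes within a library. In PHx, Msr1 at 49.0 ± 2.59 RPKM lay above Cd68 at 25.0 ± 5.68 in every library. Dmbt1 took the last place in PHx, at 0.257 ± 0.066 RPKM, below Timd4 at 0.810 ± 0.718, whose spread covers it.

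Ratios between genes within a library do not depend on the scaling of libraries. For every 100 Clec4f counts there were 9.96, 6.85 and 5.18 Marco counts in Sham 1, 3 and 4. In PHx 1, 3 and 4 there were 28.4, 29.6 and 89.9. All PHx ratios lay above all Sham ratios, where 23.7% of 19032 tested genes did so in their ratio to Clec4f. Clec4f itself averaged less in PHx and had 169 counts in PHx 4. Vsig4 had 25.2, 25.4 and 21.2 counts per 100 Clec4f counts in Sham and 32.7, 30.3 and 65.7 in PHx, again with no overlap.

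Cd68 ratios to Clec4f also lay apart, at 41.2, 42.5 and 53.5 in Sham 1, 3 and 4 and at 84.6, 114 and 1126 in PHx. Cd5l, Cd163, Timd4, Csf1r, Msr1 and Dmbt1 ratios overlapped between the groups, so 3 of 9 genes lay apart, and with that background the count is no result about these genes. For Cd5l they were 121, 74.6 and 76.5 in Sham and 85.8, 87.0 and 296 in PHx. PHx 4 had the highest ratio to Clec4f of Marco, Vsig4, Cd5l, Cd163, Csf1r, Cd68 and Msr1. It had the lowest ratio of Timd4, at 2.96 against at least 5.56 elsewhere. Clec4f itself was lowest in PHx 4, at 3.52 CPM against at least 25.2 CPM elsewhere, which raises any ratio to it. The share of all tested genes with their highest ratio in PHx 4 was not computed, so these ratios are no result about the genes. Dmbt1 counts per 100 Clec4f counts ranged from 14.6 to 136 in Sham and from 4.34 to 63.9 in PHx, with overlap.

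**Figure D3:**
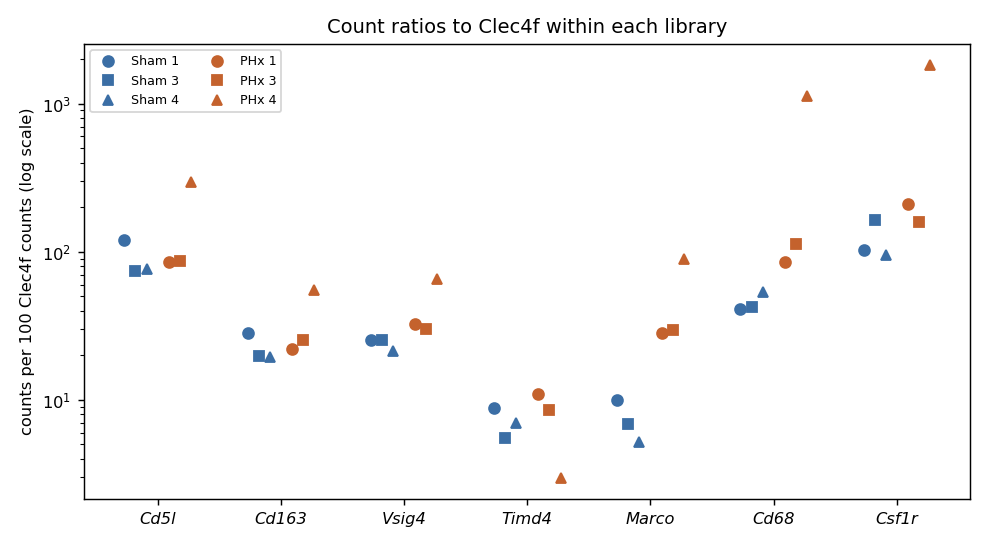
Counts of each gene per 100 Clec4f counts of the same library are plotted on a logarithmic axis, with Sham libraries to the left and PHx libraries to the right of each gene name. For Marco, Vsig4 and Cd68 all PHx ratios lie above all Sham ratios, as they do for 23.7% of tested genes. The PHx 4 triangle is the lowest point for Timd4 and the highest for the other 6 genes. Clec4f, by which all counts are divided, was itself lowest in PHx 4.

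Because Clec4f, Vsig4, Timd4, Cd5l and Marco moved together between libraries, the 250 bases before their transcription starts are shown as context, from RefSeq (GRCm38.p6), written 5′ to 3′ on the gene's strand. Promoter windows were searched for 7 of the 10 genes. For Dmbt1 and Msr1 no entry was matched, and Csf1r was left out because windows on its chromosome were not used. Capitals mark matches to GAGGAA, the core bound by PU.1 and related ETS factors of myeloid cells, or to its reverse complement, and to the composite site of PU.1 with IRF factors.
Clec4f (chr6:83656117-83656366, minus strand): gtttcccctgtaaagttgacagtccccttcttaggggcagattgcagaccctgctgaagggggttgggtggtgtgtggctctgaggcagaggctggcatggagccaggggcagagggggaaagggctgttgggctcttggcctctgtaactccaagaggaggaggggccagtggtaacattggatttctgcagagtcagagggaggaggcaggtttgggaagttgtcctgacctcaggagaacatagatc
Vsig4 (chrX:96293439-96293688, minus strand): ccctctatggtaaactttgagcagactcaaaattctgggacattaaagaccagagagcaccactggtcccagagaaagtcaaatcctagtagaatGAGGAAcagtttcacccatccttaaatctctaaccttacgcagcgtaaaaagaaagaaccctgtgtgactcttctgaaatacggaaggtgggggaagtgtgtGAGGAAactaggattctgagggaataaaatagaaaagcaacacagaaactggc
Timd4 (chr11:46810549-46810798, plus strand): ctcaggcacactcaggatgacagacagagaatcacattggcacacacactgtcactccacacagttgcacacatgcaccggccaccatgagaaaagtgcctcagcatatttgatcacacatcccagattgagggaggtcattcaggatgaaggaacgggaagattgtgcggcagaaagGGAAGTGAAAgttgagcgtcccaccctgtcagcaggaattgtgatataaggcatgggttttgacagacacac
Cd5l (chr3:87357631-87357880, plus strand): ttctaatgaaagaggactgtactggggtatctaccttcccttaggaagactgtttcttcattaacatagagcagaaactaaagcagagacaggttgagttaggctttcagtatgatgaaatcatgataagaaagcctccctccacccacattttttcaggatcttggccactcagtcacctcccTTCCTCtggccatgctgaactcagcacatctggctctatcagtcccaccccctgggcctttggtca
Marco (chr1:120505025-120505274, minus strand): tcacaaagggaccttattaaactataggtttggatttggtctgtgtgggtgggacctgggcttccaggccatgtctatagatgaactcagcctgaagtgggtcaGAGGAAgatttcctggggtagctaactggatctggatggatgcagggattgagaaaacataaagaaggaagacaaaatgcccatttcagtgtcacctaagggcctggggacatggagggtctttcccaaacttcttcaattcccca

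GAGGAA occurred on either strand in Vsig4, at 2 places, and in Cd5l, Marco and Cd68, as it did in 23.3% of 32851 promoter windows of the same length. The PU.1-IRF composite occurred in Timd4, as GGAAGTGAAA, and in 2.30% of all windows. The Timd4 window also held TGCTGAC on the opposite strand, a short MAF recognition motif, which 3.81% of all windows hold. The longer PU.1 form GAGGAAGT, the liver X receptor direct repeat, the C/EBP palindrome TTGCGCAA and the E-box CACGTG were searched on both strands and matched none of the 7 windows. In Clec4f and Cd163 none of the searched letters occurred. These matches describe the letters of the windows only.

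The genes whose pattern over the 6 libraries was most like that of Dmbt1, by Pearson's r of log2 CPM among 11036 other genes with a mean of at least 5 CPM, were Blvrb, Slc37a4, Lrrc8d, Nbn, Epn2 and Crat, with r between 0.98 and 0.99. This r mixes the difference between the groups with the order within them. None of these was called, and their log2 fold changes were between -0.32 for Epn2 and -0.13 for Nbn. In that ranking Clec4f took place 3192 (r = 0.49) and Marco place 8849 (r = -0.47). When deviations from the group means were compared, Clec4f, Cd5l, Cd163, Marco and Vsig4 took places between 10878 for Marco and 10958 for Vsig4. Their r lay between -0.88 and -0.81. Timd4, with a mean under 5 CPM, was not among the ranked genes, and its r was -0.82. Msr1 took place 1326 (r = 0.50). Zfp524, Col27a1, Frmd8, Zmym5 and Pex14 were among the 6 genes most like Dmbt1 by that measure.

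The genes most like the mean of the 6 Kupffer cell genes over the libraries were Ddost, Siglec1, Sars2, Cyp1a1, Asb1 and Pmpcb, with r between 0.97 and 0.995 among 11032 genes. Siglec1, a sialic acid receptor of tissue macrophages, stood at 30.04, 6.11 and 9.99 CPM in Sham 1, 3 and 4 and at 8.36, 7.49 and 2.02 CPM in PHx. Its range over the libraries was close to that of Vsig4. Cyp1a1 spanned 8.76 to 42.4 CPM, while Ddost, Sars2, Asb1 and Pmpcb changed far less between libraries, between 121 and 157 CPM for Ddost. Dmbt1 took place 4033 in this ranking (r = 0.34), and place 10831 (r = -0.87) when deviations from the group means were compared.

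Other macrophage genes were read from a list of 22. None was called, where 0.862% of all tested genes were called in either direction; 4 had an unadjusted p under 0.05 and DESeq2 called none. The list median was -0.21, against 0.03 over all tested genes. The most abundant members were Sdc3, a syndecan, at 515 ± 44.2 CPM in Sham against 432 ± 8.27 CPM in PHx, Mertk, a receptor for the engulfment of dying cells (522 ± 41.0 and 424 ± 42.1), Slc40a1, the iron exporter (283 ± 15 and 205 ± 53.0), and Hpgd, which inactivates prostaglandins (255 ± 46.9 and 269 ± 95.2). None of these had the library order of Clec4f, and which cells these abundant transcripts came from was not tested. In Sham 1, 3 and 4 Sdc3 stood at 565, 499 and 482 CPM and Mertk at 565, 516 and 484 CPM. Slc40a1 stood at 270, 281 and 299 CPM there, and Hpgd at 217, 241 and 307 CPM. Adgre1, which encodes the macrophage marker F4/80, Folr2, a folate receptor, and C1qc, a complement subunit, had the library order of Clec4f. They are 3 of the 22 and are named here after their values were seen. For C1qc the order was near a tie, with 22.8 CPM in PHx 3 and 22.7 CPM in PHx 4, which change places in the deposited RPKM. Adgre1 stood at 31.0, 7.23 and 14.1 CPM in Sham 1, 3 and 4 and at 13.4, 11.9 and 10.5 CPM in PHx. Other genes of the list ran the other way: Lyz2, a lysozyme of myeloid cells, stood at 91.5, 61.5 and 70.4 CPM in Sham and at 176, 101 and 531 CPM in PHx, highest in PHx 4. Axl, another receptor for dying cells, also had all PHx libraries above all Sham libraries, as 10.5% of all tested genes did, and Slc11a1 and Ptprc were highest in PHx 4. These 4 genes were likewise chosen after their values were seen.

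Of 17 genes that regulate macrophages, 2 were called higher in PHx and none lower, where 0.846% of all tested genes were called higher. Il34, a ligand of Csf1r, rose from 10.9 ± 0.34 to 29.9 ± 5.33 CPM, with a log2 fold change of 1.46 ± 0.16 (SE, edgeR quasi-likelihood adjusted p = 0.0135). Runx1, a transcription factor of blood development, rose from 2.27 ± 0.95 to 11.9 ± 2.63 CPM, with a log2 fold change of 2.40 ± 0.34 (adjusted p = 0.0271). Csf1, the other ligand, stood at 191, 253 and 185 CPM in Sham 1, 3 and 4 and at 306, 169.9 and 341 CPM in PHx, with overlap. Il34 was not called without Sham 1, Sham 3 or Sham 4, nor with the replicate block (adjusted p = 0.0709), and its adjusted p over all alternatives ranged from 1.46e-11 with DESeq2 to 0.115. Runx1 was not called without Sham 3, Sham 4, PHx 1 or PHx 3, nor with the block (adjusted p = 0.130), with a range from 7.59e-10 to 0.165. The 12 listed stellate cell genes moved in the same libraries, with 8 called higher and a summed level of 1897 to 2526 CPM in Sham against 5558 to 7088 CPM in PHx, and their part in the Il34 and Runx1 values was not tested.

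Of 14 other tested SRCR genes, Loxl2 was called higher in PHx and none lower, where 0.846% of all tested genes were called higher and 0.0158% lower. The median log2 fold change of these 14 genes was 0.28. Loxl2, a matrix cross-linking oxidase that carries SRCR domains, rose from 63.7 ± 7.12 to 129.5 ± 20.0 CPM, with a log2 fold change of 1.03 ± 0.14 (SE, edgeR quasi-likelihood adjusted p = 0.0273). It was not called without Sham 1, Sham 3, Sham 4 or PHx 3 or with the replicate block (adjusted p = 0.141), and its adjusted p over all alternatives ranged from 1.35e-06 to 0.171. DESeq2 called Loxl2, Prss12 and Ssc5d. None of these 14 genes had the library order of Dmbt1. Only 1.68% of all tested genes had it, so this is no result about the list.

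None of 14 other tested scavenger receptors was called by edgeR, where 0.862% of all tested genes were called in either direction. Of these 14 receptors 7 had an unadjusted p under 0.05, while DESeq2 called Cd209b, Fcgr2b, Stab1 and Stab2 lower. The median log2 fold change of the 14 was -0.43, and 7 had all PHx libraries below all Sham libraries, as did 9.97% of all tested genes. Stab1 averaged 6673 ± 590.1 CPM in Sham against 3885 ± 1107 CPM in PHx, Stab2 6192 ± 493 and 4058 ± 929, Mrc1, the mannose receptor, 2880.1 ± 185 and 1738 ± 642, and Fcgr2b, an Fc receptor of sinusoidal endothelium, 2125 ± 114 and 1359 ± 169.5. Dmbt1, with no overlap either, had a log2 fold change of -3.70, while those of these 4 receptors lay between -0.78 and -0.61. The lowest of the 14 was Cd209b, at -1.61 ± 0.50 (SE), with means of 17.6 CPM in Sham and 5.75 CPM in PHx and no overlap.

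**Figure D4:**
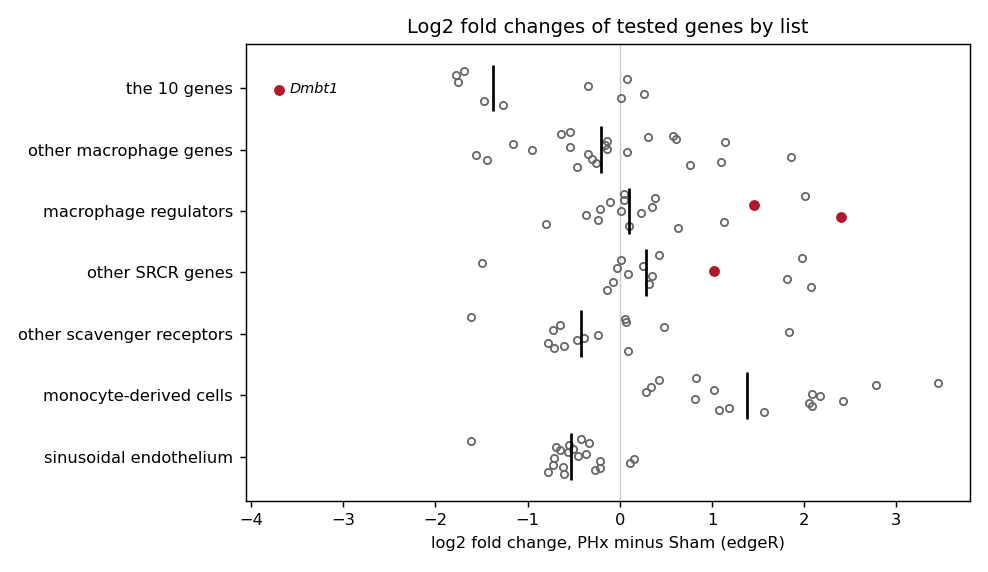
Each point is a tested gene, placed by its edgeR log2 fold change (PHx minus Sham) in rows for the 10 genes and 6 gene lists; filled points were called at an adjusted p under 0.05, open points were not, and vertical bars are medians. Dmbt1 lies at -3.70, to the left of every gene of the other rows, and the filled points to the right are Il34, Runx1 and Loxl2.

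Dmbt1 is known from epithelia, so epithelial and hepatocyte genes were read in the same way. Of 15 cholangiocyte and epithelial genes none was called, where 0.862% of all tested genes were called in either direction. In this list 3 had an unadjusted p under 0.05, DESeq2 called none, and the median log2 fold change was 0.03. The summed level was 446 to 771 CPM in Sham against 435 to 835 CPM in PHx, and no listed gene was at 0. Within Sham the mean log2 CPM of this list followed the order of Dmbt1, at 3.04, 3.64 and 3.52 in Sham 1, 3 and 4. That of the 15 hepatocyte genes did too, at 6.16, 6.60 and 6.25. Of all tested genes 13.7% had this order within Sham. Within PHx neither list followed Dmbt1, since both lists were highest in PHx 1, where Dmbt1 was lowest, and lowest in PHx 3. No gene of either list had the Dmbt1 order in both groups. Among the endothelial lists Ntn4, a netrin, had it, at 535 ± 35.1 CPM in Sham against 412 ± 32.9 CPM in PHx.

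Reads of 150 bases can in part not be placed within Dmbt1: 4.02% of the windows of that length in its longest coding transcript occur more than once in it, in GENCODE M21, and none occurs in another gene. For Cd163, Cd5l, Marco, Msr1, Clec4f, Vsig4, Timd4 and Cd68 no window was repeated or found in another gene.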

How the data were processed

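The authors deposited 1 table, per the file headers with a count column and an RPKM column for each library; the counts are whole numbers. Reads were handled with bcl2fastq and TopHat2 2.0.13, and the build was mm10 (GRCm38), per the submitters' processing notes; the counting program, annotation and strand setting are not given in the sources used here. The deposited RPKM values equalled counts divided by the listed gene length and the summed counts of the library for 100% of nonzero values, at a relative tolerance of 1e-04, and served only for comparing genes. Spreadsheet dates in 27 gene names were undone through Entrez numbers.

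Counts were fitted with edgeR 4.0.16 in R 4.3.3 (TMM, filterByExpr, robust quasi-likelihood F-test, group as the only term), with Benjamini-Hochberg adjustment over 19033 genes and a threshold of 0.05. SE is the absolute log2 fold change over the square root of F. CPM are TMM-scaled, log2 CPM use a prior count of 2, and a count of 0 allows up to 3 counts, at most 0.0795 CPM, for counting error only. On simulated counts for this comparison, over 19033 genes, 58% of 200 genes changed by a log2 size of 2 were recovered. Of the 124 genes called there, 8 were false. No 2 libraries were copies (chi-square per degree of freedom at least 49.9).

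The 10 genes and all lists were chosen with earlier results of these data known. Scart1 and Scart2 were not matched. The share of all tested genes at an unadjusted p under 0.05 was not computed, so those list counts are no result about the lists. Named list genes are up to 4 called ones, or the 4 most abundant; pattern likeness names the 6 highest Pearson r, of which 1 gene is not reported here. Alternatives were DESeq2 1.42.0, limma-voom (limma 3.58.1), other scaling and filters, a replicate block, a Kupffer covariate and leaving out each library.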

Additional observations from a re-analysis of the deposited data

How the results depend on the processing

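Median-of-ratios scaling and a stricter filter (5 CPM or more in 3 libraries) changed no call among those of the 10 genes they tested. Over all tested genes 161 were called higher and 3 lower; these were 721 and 126 with DESeq2, 94 and 1 with limma-voom, 359 and 30 without a filter on low counts, and 0 to 160 higher and 0 to 9 lower when each library was left out. Of the 10 genes 1 was called lower (Dmbt1), against 0 with limma-voom and 0 to 1 without each library. Called macrophage regulators numbered 2, and 0 to 2 without each library. Called SRCR genes numbered 1, against 3 with DESeq2, 2 with no filter and 0 to 2 without each library. Scavenger receptors called lower numbered 0, against 4 with DESeq2 and 1 with no filter. Dmbt1 minus the Kupffer mean, -2.36 between the groups, ranged from -3.29, without PHx 4, to -1.40, without Sham 3. For these changes the cause was not tested.

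With the replicate number as a block 14 genes were called higher and 1 lower, with 0 of the 10 genes lower, 0 macrophage regulators and 0 SRCR genes higher. The deviations of libraries that share a number correlated at -0.09, -0.23 and 0.03. Such values cannot decide whether the numbers pair the samples, and the labels do not say.

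Genes that were not called changed sign. Msr1 was at -0.017 with no filter, at -0.084 with the Kupffer covariate and between -0.090 and 0.080 without each library. Csf1r was at 0.025 with that covariate and between -0.65 and 0.15 without each library (0.15 without Sham 1), Marco between -0.19 and 1.36 (negative without Sham 3 or Sham 4), and Cd68 between -0.35 and 0.52 (negative without Sham 3 or PHx 4). The 5 counts of Timd4 in PHx 4 limit what can be said of it there.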

Other observations

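All 16 listed genes of monocytes and monocyte-derived macrophages had positive log2 fold changes, with a median of 1.38, against 0.03 over all tested genes. None was called by edgeR, where 0.862% of all tested genes were called in either direction. In this list 4 had an unadjusted p under 0.05, and DESeq2 called Plac8 alone. Cd9, a tetraspanin, stood at 137 ± 13.9 CPM in Sham against 184 ± 21.0 CPM in PHx (SD, n = 3). All its PHx libraries lay above all Sham libraries, as 10.5% of all tested genes did. Clec4e, a lectin induced in activated myeloid cells, stood at 37.6, 4.46 and 207 CPM in PHx 1, 3 and 4 and at 23.4, 5.82 and 7.17 CPM in Sham. Gpnmb, a glycoprotein of lipid-laden macrophages, reached 23.2 CPM in PHx 4 and stood between 0.530 and 4.57 CPM in the other 5 libraries. Gpnmb was named after its values were seen.

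The complement genes C1qa, C1qb and C6 did not keep to the Clec4f order. C1qc did, but near a tie, at 22.8 CPM in PHx 3 against 22.7 CPM in PHx 4. C1qa stood at 43.9, 20.7 and 33.8 CPM in Sham 1, 3 and 4 and at 43.4, 29.5 and 48.6 CPM in PHx, and C1qb at 67.0, 24.8 and 39.9 CPM in Sham against 65.0, 46.3 and 88.9 CPM in PHx. Within Sham both followed Clec4f, as did 14.1% of all tested genes. PHx 4, the library with the least Clec4f, had the most C1qa and C1qb. C6, a component of the membrane attack complex, reached 85.3 CPM in PHx 4 and stood between 12.5 and 31.6 CPM in the other 5 libraries. These genes were chosen after their values were seen.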
